A study of Mus musculus with 4 samples.

Results

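The respiratory chain genes were taken from the gene tables by symbol: all names that begin with mt-, Nduf, Cox4 to Cox8, Uqcr or Atp5, the genes Sdha to Sdhd, and Cycs and Cyc1. The rule found 99 of the 11027 listed genes. Of these, 13 are mRNAs of the mitochondrial genome, 79 are nuclear genes for subunits of complexes I to V or for cytochrome c, and 7 are Ndufaf genes, whose products help to assemble complex I and are not part of it. All 99 were among the 10960 genes tested, those with at least 1 CPM (counts scaled to the library total) in at least 1 library. Cox4i2 reached that level only through Tfh-like with Tox2, so it had to be higher there than in Th0 and than with GFP. Cox6a2 and Ndufa4l2 were not among the listed genes, so they could not be analysed here.

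Wild type C57BL/6 mice aged 7-8 wk gave the CD4+ T cells, taken from lymph nodes and spleen. They were activated as naive cells, infected with a retrovirus in a neutral condition and sorted for GFP, so every library comes from infected, GFP+ cells. The virus carried Tox2 with GFP or, as control, GFP alone, and the sorted cells then grew in Tfh-like or in Th0 culture. Antibodies to IL-2, IL-4 and IFNγ were present in both cultures, and IL-6 in the Tfh-like one alone. There was 1 RNA-seq library each for Tfh-like with Tox2, Th0 with Tox2, Tfh-like with GFP and Th0 with GFP. Whether a library pools several mice is not given in the sources used here, and Tox2 here is a viral transgene.

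Library totals ran over a narrow range, 13015283 to 13673774 counts. Tox2 had 32246 counts in Tfh-like and 35297 in Th0 culture with Tox2, against 851 in Tfh-like and 144 in Th0 culture with GFP, as the labels say. All 7 CD4+ T cell markers were listed, at a summed 4579 to 4982 CPM. Of 2 CD8+, 4 B cell, 5 myeloid, 3 dendritic, 2 NK and 3 erythroid markers, 1, 1, 2, 1, 0 and 1 were listed, and the highest summed level was 15.2 CPM, that of Cd8b1.

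Electrons enter the chain at complexes I and II and pass through complex III, cytochrome c and complex IV to oxygen. Complexes I, III and IV pump protons out of the matrix, and the protons return through complex V, the ATP synthase. These 4 each combine subunits made inside the mitochondrion from its own genome with subunits made in the cytosol and imported, while complex II is built from nuclear genes alone. The mitochondrial genome is copied into long transcripts from both strands, which are then cut into the separate RNAs. T cells raise both respiration and glycolysis after activation.

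A few promoters are shown, that of Cox6a1 as an example of an NRF-1 match. Those of Cycs, Ndufa4 and Cox7a1 are shown as examples of genes that passed a test. Atp5g1, Atp5g3, Ndufa12 and Ndufv3 passed as well and are not printed. Of these, Atp5g1 holds the letters CACGTG in the same 120 bases. Cycs is the subunit gene that fell with Tox2, Ndufa4 fell in Tfh-like culture and Cox7a1 rose in it. Cox6a1 passed neither test. It had the highest mean FPKM among the nuclear members searched that held an NRF-1 match in the 120 bases shown. Not every chromosome entered that choice. Each sequence is the 120 bases before the start of the gene, read 5′ to 3′ on the strand of the gene, from RefSeq (GRCm38.p6). Capitals mark the match to the motif of NRF-1, a factor known to bind promoters of respiratory genes. Cycs lies on the minus strand at chr6:50566570-50566689, Ndufa4 on the minus strand at chr6:11907451-11907570, Cox7a1 on the plus strand at chr7:30184051-30184170 and Cox6a1 on the minus strand at chr5:115348959-115349078.
Cycs: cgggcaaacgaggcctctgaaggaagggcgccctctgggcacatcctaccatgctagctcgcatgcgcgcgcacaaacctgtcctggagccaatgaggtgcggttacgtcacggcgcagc
Ndufa4: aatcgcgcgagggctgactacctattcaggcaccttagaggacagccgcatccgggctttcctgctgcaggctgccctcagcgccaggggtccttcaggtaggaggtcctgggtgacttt
Cox7a1: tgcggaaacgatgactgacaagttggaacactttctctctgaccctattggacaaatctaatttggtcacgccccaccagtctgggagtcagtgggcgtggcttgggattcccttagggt
Cox6a1: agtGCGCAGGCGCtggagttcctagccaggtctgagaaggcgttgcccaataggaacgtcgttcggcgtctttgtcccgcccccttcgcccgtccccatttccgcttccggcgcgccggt

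Of the 79 nuclear subunit genes, 66 had a promoter in the table, which covers 250 bases before to 50 after the start. The NRF-1 motif (GCGC, any base, TGCGC), searched like the others on both strands, was in 25.8% of them, against 12.1% of the 8873 tested genes with a promoter. AAGATGGC, a YY1 motif, was in 13.6% against 5.56% of the tested genes. CCGGAAGT, bound by ETS factors such as GABP, was in 7.58% against 9.69%, and the E-box CACGTG in 7.58% against 11.8%. Of the 9 nuclear subunits that passed a test for culture or Tox2, 7 had a promoter in the table (all but Cox4i2 and Cyc1). Among these, Atp5g3 held an NRF-1 match, and Atp5g1 and Atp5g3 held an E-box. These are matches of letters, not sites shown to be bound. Only exact matches were counted, so a gene without one, such as Cycs, is not shown to lack a site.

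Per length, mitochondrial mRNAs stood above most nuclear ones. The deposited FPKM (fragments scaled to gene length and library size) averaged over the 4 libraries ranged from 195 for mt-Nd3, a complex I subunit, to 5314 for mt-Co1, the catalytic subunit of complex IV, with a median of 761 over the 13 genes. The 79 nuclear subunit genes ranged from 0.67 for Cox4i2 to 456 for Cox8a, a small complex IV subunit, with a median of 42.3. Only 5 of the 79, Cox8a, Atp5a1, Cox6a1, Atp5b and Atp5d, averaged more than mt-Nd3, while 10 of the 79 averaged under 10 FPKM.

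The highest nuclear subunit of complex I was Ndufc2 at 116 FPKM, of complex II Sdhd, a membrane anchor, at 97.1, of complex III Uqcr10 at 165 and of complex V Atp5a1, the alpha subunit of its catalytic head, at 332. Cycs, which carries electrons from complex III to complex IV, averaged 7.68 FPKM. These levels depend on the gene length the authors divided by, which count and FPKM together imply: for 2 nuclear members, Atp5j and Ndufs1, it was over 3 times the longest annotated transcript. Many nuclear respiratory genes, Cycs among them, also have processed copies elsewhere in the genome that can take or give reads.

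**Figure D1:**
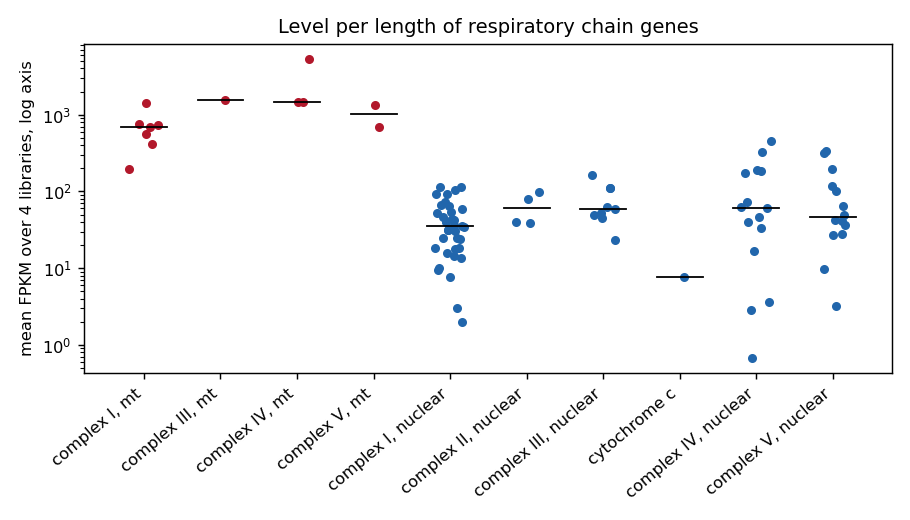
Mean FPKM over the 4 libraries (log axis) of each subunit gene, grouped by complex and by genome of origin (red, mitochondrial; blue, nuclear; black bars, medians). The mitochondrial mRNAs lie between 195 and 5314 FPKM and most nuclear ones lie below 195.

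Mitochondrial mRNAs other than mt-Co1 made up less of the RNA in Tfh-like than in Th0 culture with either virus. The 13 mRNAs together took 2.16% of counts in Tfh-like and 2.45% in Th0 culture with Tox2, and 1.99% in Tfh-like against 2.45% in Th0 culture with GFP. Without mt-Co1 the share was 1.10% in Tfh-like and 1.37% in Th0 culture with Tox2, and 1.003% in Tfh-like against 1.48% in Th0 culture with GFP. The exact 95% binomial intervals, which cover counting error only, span less than 0.02 points around each of these shares. The 79 nuclear subunits took 1.09% in Tfh-like and 1.14% in Th0 culture with Tox2, and 1.15% in Tfh-like against 1.296% in Th0 culture with GFP.

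The ratio of mitochondrial to nuclear subunit counts was 1.99 (95% interval 1.98 to 2.004) in Tfh-like with Tox2, 2.15 (2.14 to 2.17) in Th0 with Tox2, 1.73 (1.72 to 1.74) in Tfh-like with GFP and 1.89 (1.88 to 1.90) in Th0 with GFP. It was thus lower in Tfh-like than in Th0 with each virus, and higher with Tox2 than with GFP in each culture. With 1 library a group this ratio has no replicate check, and in bulk RNA fewer cells of a type and less RNA per cell cannot be told apart, nor can fewer mitochondria and less mRNA in each.

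A single gene weighed heavily in these sums. Counts of mt-Co1 were 49.0% of the mitochondrial counts in Tfh-like and 44.2% in Th0 culture with Tox2, and 49.6% in Tfh-like against 39.6% in Th0 culture with GFP. Without it, the ratio was 1.02 in Tfh-like and 1.20 in Th0 culture with Tox2, and 0.872 in Tfh-like against 1.14 in Th0 culture with GFP. The ratio was again lower in Tfh-like with each virus and higher with Tox2 in each culture, but Th0 with GFP now stood above Tfh-like with Tox2.

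Complex by complex, the ratio was lower in Tfh-like with either virus for complexes I, III and V. For complex I it was 1.995 in Tfh-like and 2.54 in Th0 culture with Tox2, and 1.83 in Tfh-like against 2.47 in Th0 culture with GFP. For complex III it was 1.75 in Tfh-like and 2.07 in Th0 culture with Tox2, and 1.44 in Tfh-like against 1.99 in Th0 culture with GFP. For complex V it was 0.284 in Tfh-like and 0.302 in Th0 culture with Tox2, and 0.221 in Tfh-like against 0.273 in Th0 culture with GFP. For complex IV, which holds mt-Co1, it was 7.04 in Tfh-like and 7.28 in Th0 culture with Tox2, but 6.24 in Tfh-like against 5.89 in Th0 culture with GFP, so its order by culture differed between the viruses.

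**Figure D2:**
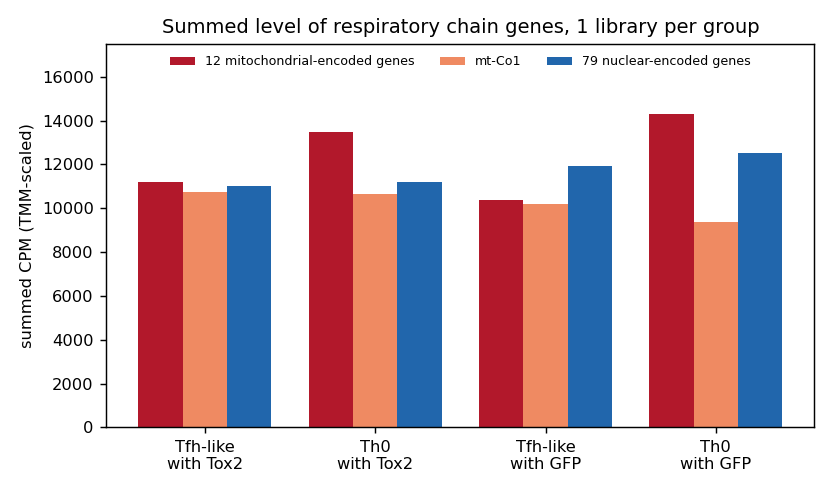
Summed TMM-scaled CPM of the 12 mitochondrial mRNAs other than mt-Co1 (red), of mt-Co1 (orange) and of the 79 nuclear subunit genes (blue) in each of the 4 libraries. The red bars reach 11190 and 10388 CPM in the Tfh-like libraries with Tox2 and GFP and 13470 and 14311 CPM in the Th0 libraries with Tox2 and GFP, while mt-Co1 stays between 9388 and 10734 CPM.

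The culture effect was tested gene by gene with edgeR's quasi-likelihood test in an additive model of culture and virus over the 4 libraries, with Benjamini-Hochberg adjustment over all 10960 genes and a threshold of 0.05. Its measure of spread is how far the Tox2 fold differs between the cultures, moderated across genes, so its p-values say nothing of the spread between replicates or animals. Over all genes 14.3% rose and 9.96% fell in Tfh-like. Of the 13 mitochondrial mRNAs none rose and 7 fell, and 11 of 13 had an unadjusted p under 0.05, as did 37.6% of all genes tested. Their median log2 fold was -0.39, against -0.01 over all genes tested.

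The 7 that fell were mt-Nd3, mt-Nd2, mt-Nd6, mt-Nd4l, mt-Nd1 and mt-Nd5, membrane subunits of complex I, and mt-Cytb, the cytochrome b of complex III. In CPM scaled by TMM (a factor per library that levels the bulk of genes), mt-Nd3 was at 73.7 in Tfh-like and 94.1 in Th0 culture with Tox2, and at 59.3 in Tfh-like against 112 in Th0 culture with GFP. Both Tfh-like libraries were thus below both Th0 libraries, and the log2 fold was -0.63 (SE 0.15, edgeR adjusted p = 0.0263). The abundant mt-Cytb was at 2018 CPM in Tfh-like and 2489 in Th0 culture with Tox2, and at 1759 in Tfh-like against 2727 in Th0 culture with GFP. Its log2 fold was -0.47 (SE 0.11, edgeR adjusted p = 0.0257), again with no overlap between the cultures.

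Among the other complex I genes, mt-Nd2 was at 821 CPM in Tfh-like and 1042 in Th0 culture with Tox2, and at 769 in Tfh-like against 1204 in Th0 culture with GFP, a log2 fold of -0.50. mt-Nd6, the sole mRNA of this set on the minus strand (chrM:13552-14070 in GENCODE M21, GRCm38), was at 292 CPM in Tfh-like and 399 in Th0 culture with Tox2, and at 318 in Tfh-like against 443 in Th0 culture with GFP. It had the lowest edgeR adjusted p of the 13, 0.0164, with a log2 fold of -0.46 (SE 0.10). Its neighbours on the plus strand, mt-Nd5 and mt-Cytb, had log2 folds of -0.39 and -0.47.

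mt-Nd5 was at 1407 CPM in Tfh-like and 1857 in Th0 culture with Tox2, and at 1323 in Tfh-like against 1727 in Th0 culture with GFP. Its log2 fold was -0.40 with Tox2 and -0.38 with GFP, with overlapping counting intervals. mt-Nd1 was at 1417 CPM in Tfh-like and 1739 in Th0 culture with Tox2, and at 1466 in Tfh-like against 2067 in Th0 culture with GFP, a log2 fold of -0.40. mt-Nd4l had a log2 fold of -0.43 (edgeR adjusted p = 0.0328), the 1 call of the 7 that DESeq2 did not make (adjusted p = 0.0559). Its gene overlaps the start of mt-Nd4, as mt-Atp8 overlaps mt-Atp6 and mt-Nd5 overlaps the end of mt-Nd6. Their counts, and those of any gene with nuclear copies of mitochondrial DNA, are uncertain to that extent, the more so for mt-Nd6 because the strand setting of the counting is not given in the sources used here.

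The other 6 did not pass. mt-Nd4 had a log2 fold of -0.34 (edgeR adjusted p = 0.0625), mt-Atp8 of -0.29, mt-Atp6, which forms the proton path of complex V, of -0.27, mt-Co2 of -0.24 and mt-Co3 of -0.22. In each of these 5, as in the 7 that fell, both Tfh-like libraries were below both Th0 libraries, which makes 12 of 13, where 25.1% of all genes tested showed that order. The exception was mt-Co1, at 10734 CPM in Tfh-like and 10659 in Th0 culture with Tox2, and at 10207 in Tfh-like against 9388 in Th0 culture with GFP. Its log2 fold was 0.07 (SE 0.08, edgeR adjusted p = 0.613).

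Seen pair by pair, with exact 95% counting intervals and no p-value, 12 of 13 mitochondrial mRNAs were below 0 beyond counting error in Tfh-like over Th0 with Tox2 (29.2% of all genes tested), and 12 of 13 with GFP (31.2%), where mt-Co1 was the 1 of 13 above 0 (32.1%). The median log2 fold was -0.30 with Tox2 and -0.48 with GFP. With the length trend removed, mt-Co1 with Tox2 was at -0.07 (interval -0.08 to -0.06). All 13 of 13 were then below 0 beyond counting error with Tox2, against 3229 of the 10960 genes tested. With GFP, mt-Co1 stayed above 0, at 0.15.

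**Figure D3:**
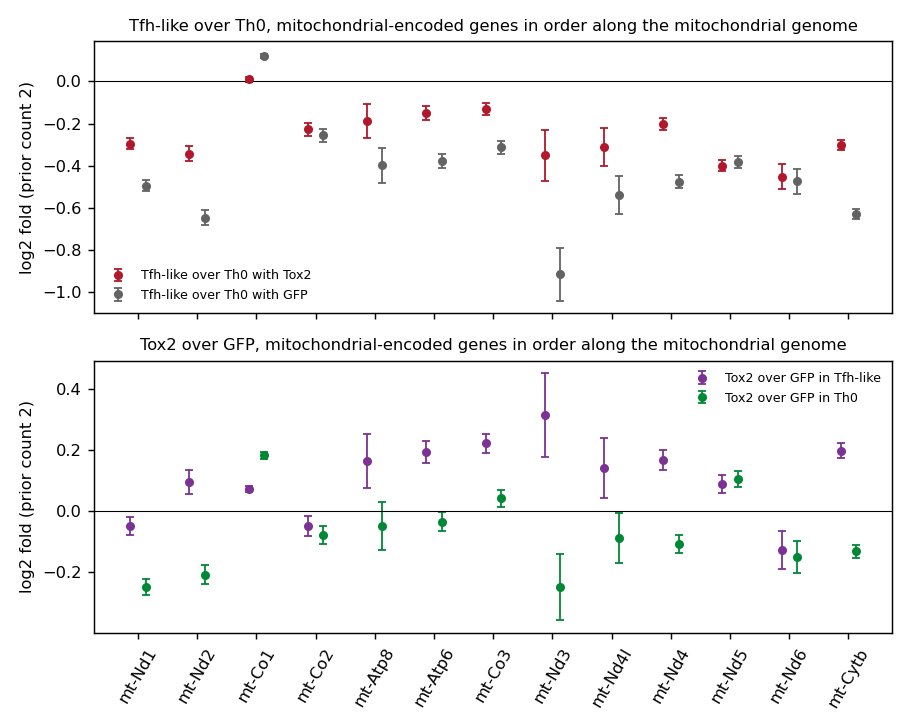
Log2 folds of TMM-scaled CPM (prior count 2) of the 13 mitochondrial mRNAs in their order along the genome, Tfh-like over Th0 with each virus (top) and Tox2 over GFP in each culture (bottom), 1 library a group; bars are exact 95% intervals for counting error. In the top panel mt-Co1 alone lies at or above 0, and in the bottom panel several genes lie above 0 in Tfh-like and below 0 in Th0.

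Few nuclear subunit genes passed the threshold for culture: 3 of 79 rose and 5 of 79 fell. Both shares were below the 14.3% and 9.96% of all genes, and the median log2 fold was -0.08. By pair with Tox2, 17 of 79 were above 0 beyond counting error (29.2% of all genes tested) and 21 of 79 below (29.2%). With GFP 10 of 79 were above (32.1%) and 45 of 79 below (31.2%). With the length trend removed, 37 of 79 were below with GFP, against 3482 of the 10960 genes tested. Both Tfh-like libraries were above both Th0 libraries in 13 of 79, an order found in 27.6% of all genes, and below them in 16 of 79 (25.1%). The 3 that rose were Cox7a1, Ndufv3 and Cox4i2, which entered the test through Tfh-like with Tox2 alone and leaves 2 when it is not counted. The 5 that fell were Ndufa4, Ndufa12, Atp5g1, Cyc1 and Atp5g3. With DESeq2 only Ndufa4 of these 8 still passed (Cox4i2 had no adjusted p there), and Cyc1 also missed the threshold under other filters.

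Cox4i2 and Cox7a1 are isoforms of complex IV subunits known from other settings, Cox4i2 from lung and low oxygen and Cox7a1 from heart and skeletal muscle. Cox7a1 had 51 counts (3.81 CPM) in Tfh-like and 16 (1.15 CPM) in Th0 culture with Tox2, and 44 (3.37 CPM) in Tfh-like against 18 (1.34 CPM) in Th0 culture with GFP. Its log2 fold was 1.52 (SE 0.33, edgeR adjusted p = 0.0195). Cox4i2 had 16 counts in Tfh-like and 3 in Th0 culture with Tox2, and 13 in Tfh-like against 3 in Th0 culture with GFP. Its level in Th0 was at the floor of 3 counts a library, and since it entered the test through Tfh-like with Tox2 alone, its call is not read as support for a difference. With a prior count of 2, the log2 fold was 1.88 with Tox2 (counting interval of the plain counts 0.66 to 4.89) and 1.62 with GFP (0.29 to 4.61).

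Both isoforms were rare beside their common counterparts, which did not pass. Per length, Cox4i2 averaged 0.67 FPKM and Cox4i1 182, and Cox7a1 averaged 3.63 FPKM and Cox7a2 73.2. Cox4i1 had a log2 fold of 0.08 and Cox7a2 of -0.05. Cox7a2l, which links complexes III and IV in supercomplexes, was at 287 CPM in Tfh-like and 231 in Th0 culture with Tox2, and at 252 in Tfh-like against 210 in Th0 culture with GFP. Its cultures did not overlap, but with a log2 fold of 0.29 (edgeR adjusted p = 0.0792) it missed the threshold. Cox6b2, the testis isoform, had a log2 fold of -0.48 (adjusted p = 0.246) at 42 to 66 counts, and the common Cox6b1 one of 0.03.

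Ndufv3, an accessory subunit of the NADH-oxidising end of complex I, was at 222 CPM in Tfh-like and 184 in Th0 culture with Tox2, and at 254 in Tfh-like against 169 in Th0 culture with GFP. Its log2 fold was 0.43 (SE 0.12, edgeR adjusted p = 0.0401). No other nuclear complex I subunit rose. Ndufa12, another accessory subunit of the arm that reaches into the matrix, was at 21.9 CPM in Tfh-like and 28.9 in Th0 culture with Tox2, and at 29.0 in Tfh-like against 42.9 in Th0 culture with GFP, a log2 fold of -0.48 (adjusted p = 0.0305).

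Ndufa4, now counted as a complex IV subunit despite its name, was at 49.2 CPM in Tfh-like and 71.4 in Th0 culture with Tox2, and at 64.0 in Tfh-like against 90.8 in Th0 culture with GFP. It had the lowest adjusted p of the nuclear subunits, 0.0126 by edgeR, with a log2 fold of -0.52 (SE 0.10), and the pair folds were close, -0.53 with Tox2 and -0.50 with GFP. Cyc1, the cytochrome c1 of complex III, had a log2 fold of -0.35 with an edgeR adjusted p of 0.0493, just inside the threshold. Uqcr10, a small complex III subunit, was just outside it, with a log2 fold of -0.39 and an adjusted p of 0.0633, and passed with plain totals (0.0229).

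The genes Atp5g1, Atp5g2 and Atp5g3 encode the same mature protein, the c subunit of the complex V rotor, with different import signals. Atp5g1 fell (log2 fold -0.37, edgeR adjusted p = 0.0393) and Atp5g3 fell (-0.34, adjusted p = 0.0457), while Atp5g2 had a log2 fold of -0.13 and did not pass. Per length, Atp5g3 was highest of the 3 at 119 FPKM, against 49.9 for Atp5g2 and 9.68 for Atp5g1. Complex II had no gene past the threshold, and Sdha, its flavoprotein, had a log2 fold of -0.07.

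**Figure D4:**
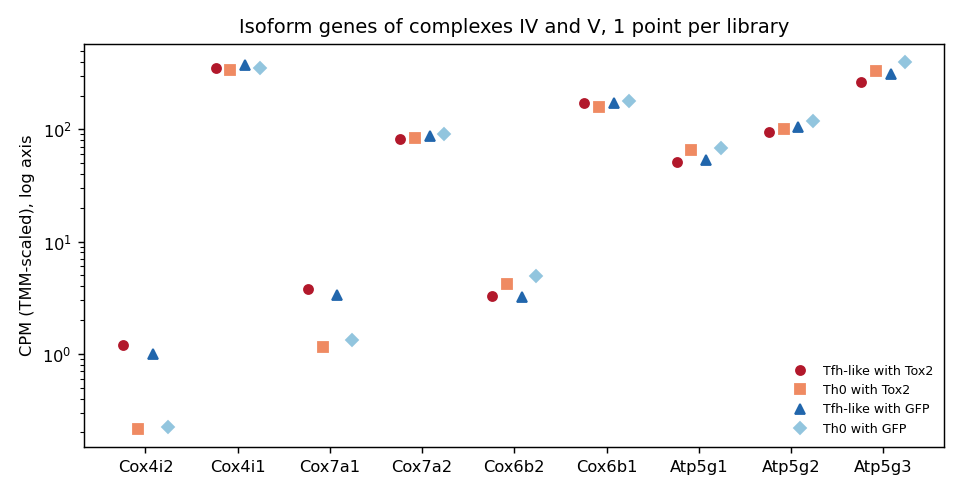
TMM-scaled CPM (log axis) of isoform genes of complexes IV and V, 1 point per library. Cox4i2 and Cox7a1 are higher in both Tfh-like libraries (1.20 and 0.996 CPM, and 3.81 and 3.37 CPM) than in both Th0 libraries (0.216 and 0.223 CPM, and 1.15 and 1.34 CPM), far below Cox4i1 and Cox7a2. Cox4i2 is at the floor of 3 counts in Th0 and entered the test through Tfh-like with Tox2 alone, so its difference is not read as support.

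Few of these genes passed the threshold for Tox2, which does not show that the others were unaffected. Over all genes 4.07% rose and 2.74% fell with Tox2, in the same additive model. Of the 13 mitochondrial mRNAs none rose, none fell and none had an unadjusted p under 0.05 (log2 folds -0.15 to 0.13, median 0.03); with DESeq2 none passed either. Of the 79 nuclear subunits none rose and 1 fell, Cycs, while 16 of 79 had an unadjusted p under 0.05, a smaller share than the 27.4% of all genes tested.

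Besides carrying electrons, cytochrome c starts the apoptosome when it leaves the mitochondrion. Cycs had 344 counts (25.7 CPM) in Tfh-like and 353 (25.4 CPM) in Th0 culture with Tox2, against 478 (36.6 CPM) in Tfh-like and 579 (43.1 CPM) in Th0 culture with GFP. Both Tox2 libraries were below both GFP libraries, with a log2 fold of -0.64 (SE 0.12, edgeR adjusted p = 0.035). The call was lost with DESeq2 (adjusted p = 0.125). By pair, the log2 fold was -0.51 (counting interval -0.71 to -0.31) in Tfh-like and -0.76 (-0.96 to -0.57) in Th0.

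The other nuclear subunits were mostly lower with Tox2 too, none of them past the threshold. Log2 folds were below 0 in 69 of 79, with a median of -0.12 against 0.00 over all genes tested. In 41 of 79 both Tox2 libraries were below both GFP libraries, an order found in 17.2% of all genes, and in 2 of 79 both were above (19.5% of all genes). All 14 nuclear subunits of complex V had a log2 fold below 0 (median -0.17, highest -0.00096). So did 8 of 9 of complex III (-0.19), 31 of 36 of complex I (-0.10), 12 of 15 of complex IV (-0.11) and 3 of 4 of complex II (-0.10). The cultures differed by pair. In Tfh-like, 31 of 79 were below 0 beyond counting error (27% of all genes tested) and 7 of 79 above (25.3%). In Th0, 49 of 79 were below (27.7%) and 4 of 79 above (28.5%). Of complex V, 3 of 14 had a fold above 0 in Tfh-like. With the length trend removed, 27 of 79 were below in each culture, with 7 of 79 above in Tfh-like and 13 of 79 in Th0. Atp5b, the catalytic beta subunit of complex V, was at 1493 CPM in Tfh-like and 1543 in Th0 culture with Tox2, against 1846 in Tfh-like and 1852 in Th0 culture with GFP.

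Among single genes, Ndufa12 and Ndufc1, accessory subunits of complex I, each had a log2 fold of -0.49 with edgeR adjusted p of 0.0614 and 0.0547, and Ndufb6 one of -0.43 (0.0586). At the other end Cox4i2 had 0.19, Uqcrh, a complex III subunit, 0.17 and Cox7a2l 0.16, all short of the threshold. Of the assembly factors none passed for Tox2 or for culture. Ndufaf3 had the highest Tox2 log2 fold of them, 0.18. Ndufaf2 had the lowest Tox2 log2 fold, -0.68 (SE 0.26, adjusted p = 0.15), with 105 counts in Tfh-like and 92 in Th0 culture with Tox2 against 122 in Tfh-like and 190 in Th0 culture with GFP. Ndufaf4 had the lowest culture log2 fold, -0.58 (adjusted p = 0.0709), and a Tox2 log2 fold of -0.55.

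Gene length moved with these values. The median implied length of the nuclear subunit genes was 1675 bases, against 4358 over all genes tested. In Th0, the log2 fold of Tox2 over GFP correlated with length across the 10960 genes (Spearman's rho 0.301, a description across genes that share the same libraries), and in Tfh-like it did so less (0.125). The 967 tested genes shorter than that median had a median log2 fold of -0.06 in Tfh-like and -0.20 in Th0, and the nuclear subunits had -0.07 in Tfh-like and -0.20 in Th0. With the length trend of each library removed, the median of the nuclear subunits was -0.02 in Tfh-like and -0.05 in Th0, and that of the mitochondrial mRNAs, whose median length is 784 bases, 0.22 in Tfh-like and 0.19 in Th0. Cycs still fell, at -0.60 (edgeR adjusted p = 0.0408). For Tfh-like over Th0, rho was -0.116 with Tox2 and 0.046 with GFP. There the 967 shorter genes had medians of 0.08 with Tox2 and -0.06 with GFP. The nuclear subunits had -0.01 with Tox2 and -0.15 with GFP. Whether length accounts for any of these shifts was not tested. In the culture comparison the 7 mitochondrial mRNAs still fell with the trend removed. mt-Nd4 and Uqcr10 then passed as well (edgeR adjusted p = 0.0291 and 0.0342), while Ndufv3 no longer passed (edgeR adjusted p = 0.0511).

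**Figure D5:**
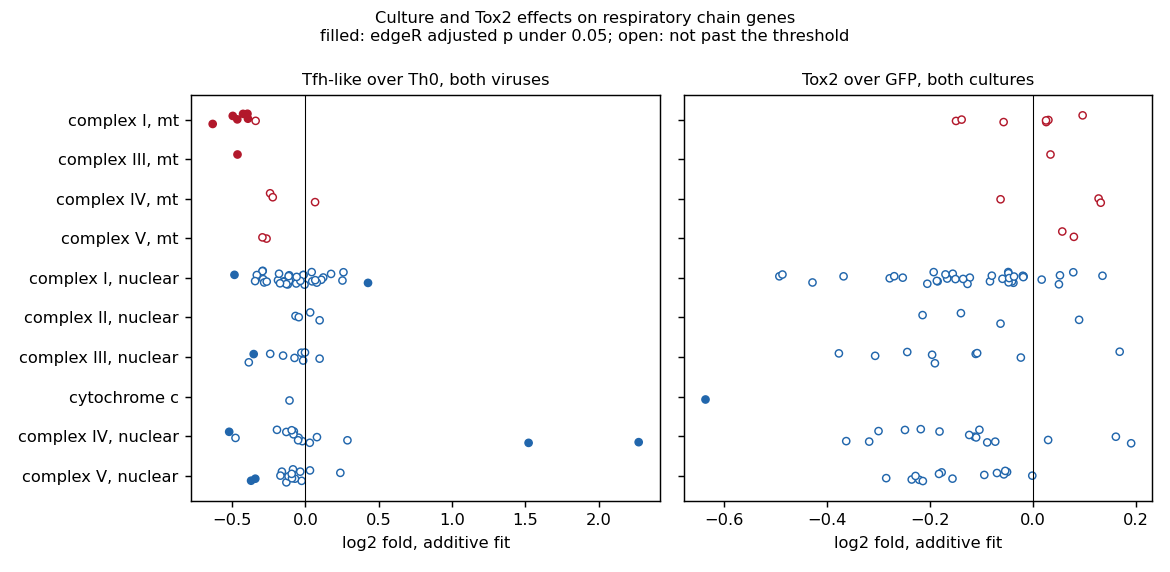
Log2 folds of the additive edgeR fit for each subunit gene, by complex and genome of origin (red, mitochondrial; blue, nuclear), Tfh-like over Th0 on the left and Tox2 over GFP on the right; filled points passed an adjusted p of 0.05. On the left 7 mitochondrial mRNAs are filled below 0, and on the right the 1 filled point is Cycs at -0.64.

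The Tox2 folds of mt-Nd3, mt-Cytb, mt-Nd2, mt-Nd4, mt-Atp6 and mt-Nd4l lay above 0 in Tfh-like and below 0 in Th0, beyond counting error. The share of all genes tested with such opposite signs was not computed. In Tfh-like, 10 of the 13 mitochondrial mRNAs were above 0 beyond counting error (25.3% of all genes tested) and 3 of 13 below (27%), with a median log2 fold of 0.14. In Th0, 3 of 13 were above (28.5%) and 9 of 13 below (27.7%), with a median of -0.09. The difference, Tfh-like minus Th0, was above 0 beyond counting error in 9 of 13 (15.8% of all genes) and below in 1 of 13 (20.6%), with a median of 0.21. This difference leaves no degree of freedom for a test. With the length trend removed its median was -0.00, with 4 of 13 above and 4 of 13 below. None of the genes named here then kept opposite signs.

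Related gene lists give the setting of these results. Of 27 genes for replication, transcription and RNA handling of mitochondrial DNA, none rose and 4 fell in Tfh-like, where 9.96% of all genes tested fell, with a median log2 fold of -0.12. Nothing particular to the list is read from these counts. The 4 that fell were Mgme1, a nuclease for mitochondrial DNA (-0.74), Polrmt, the mitochondrial RNA polymerase (-0.48), Tbrg4 (-0.37), and Lrpprc, which stabilises mitochondrial mRNAs (-0.36). Polrmt was at 42.2 CPM in Tfh-like and 57.1 in Th0 culture with Tox2, and at 44.7 in Tfh-like against 64.3 in Th0 culture with GFP (SE 0.10, edgeR adjusted p = 0.0181). Tfam, which packs mitochondrial DNA and starts its transcription, had a log2 fold of -0.26 and did not pass (adjusted p = 0.176).

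Of 21 genes for assembly of complex IV, 2 rose and 1 fell in Tfh-like (median log2 fold 0.04), both shares below the 14.3% and 9.96% of all genes tested. Sco1, a copper carrier for its catalytic core, was at 36.0 CPM in Tfh-like and 11.8 in Th0 culture with Tox2, and at 66.4 in Tfh-like against 15.0 in Th0 culture with GFP, a log2 fold of 1.89 (SE 0.16, edgeR adjusted p = 0.000679). Higd1a, a low-oxygen response protein that binds complex IV, rose by 0.85 on the log2 scale, and Coa7 fell by 0.66. Of 14 genes for complex I assembly, the Ndufaf genes among them, Ecsit rose (0.47) and Acad9 fell (-0.38), with a median of -0.23, and of 4 for complex II assembly Sdhaf1 fell (-0.73; median -0.05). None of 6 for complex III assembly (median 0.04) and none of 4 for complex V assembly and its inhibitor (median -0.10) passed.

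Vdac1, the main pore of the outer membrane, was at 958 CPM in Tfh-like and 408 in Th0 culture with Tox2, and at 883 in Tfh-like against 377 in Th0 culture with GFP. Its log2 fold was 1.23 (SE 0.10, edgeR adjusted p = 0.000515), and it alone passed for culture among 13 genes of other electron entry and of nucleotide or phosphate transport (median -0.07). Of 19 tricarboxylic acid cycle genes, Pdk1, a kinase that holds back pyruvate entry, rose (0.54) and Fh1, fumarate hydratase, fell (-0.38), with a median of -0.10. Of 8 mitochondrial antioxidant genes, Gpx4 (0.75) and Prdx5 (0.63) rose although the median was -0.22, and of 76 mitochondrial ribosomal protein genes Mrpl44 rose (0.44; median -0.13). None of 11 genes of coenzyme Q synthesis (median -0.23) or of 11 regulators of respiratory genes (median -0.08) passed for culture. Over all genes tested 14.3% rose and 9.96% fell for culture, and nothing particular to any of these lists is read from these counts.

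With Tox2, 1 of the 11 coenzyme Q genes rose, where 4.07% of all genes tested rose, and the median log2 fold of the 11 was -0.22. Nothing particular to the list is read from 1 gene. This gene was Coq9, at 117 CPM in Tfh-like and 98.5 in Th0 culture with Tox2 against 74.3 in Tfh-like and 65.2 in Th0 culture with GFP (log2 fold 0.62, SE 0.10, edgeR adjusted p = 0.0233). Of the 11 regulators (median 0.04), Pprc1, a coactivator of the PGC-1 family, fell (-0.54, adjusted p = 0.0315). Gpd2, which passes electrons from cytosolic NADH to the chain, fell (-0.47). Of the 76 mitochondrial ribosomal protein genes none rose and 2 fell, Mrps10 (-0.61) and Mrpl20 (-0.48), which is about the 2.74% of all genes tested that fell. Their median log2 fold was -0.17, beside -0.12 for the nuclear subunits. No gene of the other 8 lists passed for Tox2.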

How the data were processed

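RNA-seq was measured in 4 libraries, 1 for each virus in each culture. Per the file headers, the deposited columns are raw counts of reads for each gene and the FPKM values that the authors derived for it. Tools named by the submitters' processing notes are MACS2, edgeR, Subread, featureCounts, Bowtie2 and Trim Galore 0.4.4, with the build mm10. What each did, the annotation and the use of strand: not given in the sources used here. The tables list part of the genes: each had at least 0.658 CPM in its second-highest library.

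Totals of 13015283 to 13673774 counts put the floor of 3 counts at 0.219 to 0.230 CPM. TMM factors and totals were computed over all 11027 listed genes (edgeR 4.0.16, R 4.3.3), and the 10960 genes with at least 1 CPM in at least 1 library were tested. The additive model (culture plus virus) has 1 residual degree of freedom. Its p-values therefore measure neither replicates nor animals. "Rose" and "fell" are used of genes past an adjusted p of 0.05. Pair folds are ratios of TMM-scaled CPM (prior count 2) with exact 95% conditional binomial intervals, which cover counting error only, since reads are not independent molecules. The difference of the Tox2 folds has a delta-method interval.

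All 99 members matched GENCODE M21 by symbol. The members and the 12 related lists were chosen with earlier results of these data known. The genes named are all mitochondrial mRNAs, subunits past the test, the highest subunit per complex by FPKM, the 3 highest and 3 lowest nuclear members per effect, isoform genes, and up to 4 genes per list and effect. Ndufc1, Ndufb6, Atp5b and Tfam were named after their values were seen. Alternatives were DESeq2 1.42.0 and its size factors, limma-voom (limma 3.58.1), plain totals, scaling without mitochondrial genes, other filters and prior counts, and removal of each library's length trend by loess. Scaling after the filter and the ratio without mt-Co1 were added after seeing the data. The procedure was tested on simulated counts.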

Additional observations from a re-analysis of the deposited data

Results flagged for a closer look

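For 7 genes and 1 sum, the Tox2 fold had opposite signs in the cultures, each beyond counting error. Only the genes named by rule and the summed sets were checked. The share of all genes tested with such opposite signs was not computed, so nothing particular to these genes is read from the count. With 1 library per group the difference was not tested. The difference of the log2 folds, Tfh-like minus Th0, was 0.564 for mt-Nd3 (0.31 in Tfh-like and -0.25 in Th0), 0.330 for mt-Cytb (0.20 in Tfh-like and -0.13 in Th0), 0.303 for mt-Nd2 (0.10 in Tfh-like and -0.21 in Th0) and 0.276 for mt-Nd4 (0.17 in Tfh-like and -0.11 in Th0). It was 0.228 for both mt-Atp6 and mt-Nd4l, 0.195 for the summed mitochondrial mRNAs without mt-Co1, and -0.315 for Ndufv3 (-0.19 in Tfh-like and 0.12 in Th0).

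Gene length moved with these values. With each library's length trend removed, none of the 6 mitochondrial mRNAs kept opposite signs: mt-Nd3 was at 0.40 in Tfh-like and 0.09 in Th0, and mt-Cytb at 0.26 in Tfh-like and 0.07 in Th0. Ndufv3 kept them, at -0.16 in Tfh-like and 0.22 in Th0, a difference of -0.38.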

How the results depend on the processing

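No paired analysis was possible because the labels give no replicate numbers and each group has 1 library; leaving out a library leaves no residual degree of freedom, and the pair folds above stand in for it. No named gene past the threshold changed sign in the additive fits of the alternatives run. Some pair folds did. For Tox2 over GFP in Th0, 9 of 13 mitochondrial mRNAs were below 0 beyond counting error and 3 of 13 above. With the length trend removed, 0 of 13 were below and 10 of 13 above. Genes past the threshold for Tox2 numbered 746, and 1193 with plain totals and 484 with DESeq2. For culture they numbered 2656, and 1619 with DESeq2. Nuclear subunits past it for Tox2 numbered 1 (Cycs), 3 with DESeq2 size factors, 4 with plain totals and 0 with DESeq2. For culture they numbered 8, 1 with DESeq2 (Ndufa4 was kept) and 5 at a CPM of at least 5, where Cox4i2 and Cox7a1 were not tested. Mitochondrial mRNAs past it for culture numbered 7, 11 with plain totals, and with DESeq2 6 of the 7 were kept (mt-Nd4l was lost). DESeq2 gave no adjusted p for Cox4i2. Cyc1 was also lost with no filter (adjusted p = 0.05020), at a CPM of at least 5 (0.05198) and with scaling after the filter (0.05361).

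With the length trend removed, the mitochondrial median log2 fold was 0.19 for the Tox2 effect, 0.22 for Tox2 in Tfh-like, 0.19 for Tox2 in Th0, -0.39 for Tfh-like with Tox2, -0.36 for Tfh-like with GFP and -0.0031 for the difference, and the nuclear median for Tox2 in Th0 was -0.051. With plain totals the mitochondrial medians were -0.34 for Tfh-like with Tox2, -0.57 for Tfh-like with GFP and 0.27 for the difference. In the order Tfh-like with Tox2, Th0 with Tox2, Tfh-like with GFP and Th0 with GFP, shares of counts other than mitochondrial ones were 2.21%, 2.51%, 2.03% and 2.51% for mitochondrial mRNAs and 1.11%, 1.17%, 1.17% and 1.33% for nuclear subunits. In that order the ratio was 3.04, 3.39, 2.66 and 3.01 from summed FPKM, 10.1, 12.3, 8.89 and 11.3 from geometric means, 1.97, 2.13, 1.71 and 1.87 with assembly factors kept in, and 1.02, 1.20, 0.872 and 1.14 without mt-Co1. All 4 alternatives kept the ratio lower in Tfh-like and higher with Tox2. Adding mitochondrial rRNA and tRNA was not run, since the 13 mitochondrial genes listed are all mRNAs. The cause of the changes under DESeq2, plain totals and the length trend was not tested.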
